A study of Bos taurus with 12 samples.

Results

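The cytosolic ribosomal protein genes were taken as the rows of the count table whose symbol names a small subunit protein (RPS or RPSA), a large subunit protein (RPL) or an acidic stalk protein (RPLP) of the cytosolic ribosome. Of 13930 symbols, 78 matched this pattern and 76 had at least 10 counts in 3 libraries. These 76 genes comprised 31 small subunit genes, 43 large subunit genes and 2 paralogs, RPL3L and RPS27L. All 76 passed the filter on low counts and were tested among 10959 genes. RPL10L and RPL28 matched but had 0 counts in every library, and the member nearest the minimum, RPL3L, had 124 counts over all 12 libraries. The subunit genes FAU and RACK1 carry other symbols and are described separately, and RPL22 and RPL41 were not analysed here.

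The cytosolic ribosome is assembled from ribosomal RNA and one copy of most ribosomal proteins, so their genes have to be supplied in matched amounts. Their messenger RNAs are among the most abundant in growing cells and share a 5′ terminal oligopyrimidine tract, through which mTOR signalling regulates their translation, while MYC promotes transcription of many of them. In the cyclic endometrium, progesterone made by the corpus luteum acts on epithelium and stroma to prepare the uterus for an embryo.

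The study measured endometrial biopsies from grazing dairy cows (Bos taurus) by RNA sequencing, with 12 samples sorted by how much progesterone was present on day 4 of the cycle. The very low class (ANE) lay below 0.25 ng/ml, the low class (LPP4) below 1.4, a bound labelled in mg/dl, the high class (HPP4) exceeded 2.5 ng/ml and the very high class (SO) exceeded 20 ng/ml, and each held 3 libraries. The labels give no agent or age and do not expand ANE or SO. They also do not say whether the libraries of a class came from separate cows, and a p-value here reflects only sample-to-sample spread, which may be technical.

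Total counts ran from 3772564 to 8379489 per library, of which 271472 to 1423670 fell on the ribosomal protein genes. Epithelial and stromal markers were detected in every library, with 14 of 15 epithelial and 10 of 10 stromal markers tested and none at 0. The libraries differed in tissue make-up. The mean log2 CPM of 14 smooth muscle markers was 9.06 to 10.3 in the HPP4 and SO libraries and 4.76 to 6.08 in the ANE and LPP4 libraries other than ANE replicate 1, where it was 11.4. ANE replicate 1 also had the lowest epithelial score, 3.76 against 6.61 to 8.79 elsewhere, had 0 counts for the ciliated cell markers FOXJ1, RSPH1 and CFAP45, and had the fewest detected symbols, 11357 against 11576 to 11913. In LPP4 replicate 3 the stromal score was the highest of the 12, at 11.3. In bulk tissue, fewer cells of a type and less RNA per cell cannot be told apart.

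The ribosomal protein genes held 7.20% to 18.3% of all counts, a 2.55-fold range, and the spread lay within classes more than between them. In the ANE class the shares were 18.3%, 7.20% and 11.6% in replicates 1 to 3, a mean of 12.4% ± 5.61 (SD, n = 3). The LPP4 shares were 9.64%, 8.26% and 14.8%, a mean of 10.9% ± 3.43 (SD, n = 3). The HPP4 shares were 9.72%, 9.001% and 12.1%, a mean of 10.3% ± 1.62 (SD, n = 3), and the SO shares were 9.52%, 9.08% and 10.1%, a mean of 9.56% ± 0.4996 (SD, n = 3). The class means fell in order from ANE to SO, but the ANE libraries spanned the values of the other 9. Both the highest and the lowest of the 12 shares belonged to ANE.

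**Figure D1:**
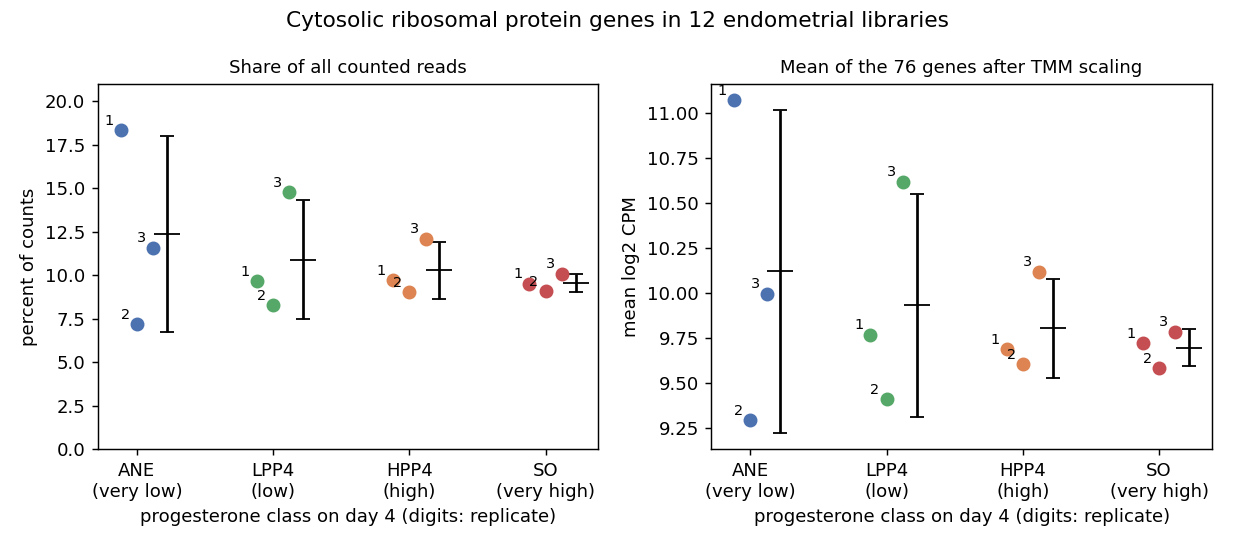
Share of all counts held by the 76 ribosomal protein genes (left, percent) and their mean log2 CPM (right) in the 12 libraries, by progesterone class. Points are libraries with the replicate number beside them, and black bars are the class mean ± SD over 3 libraries. ANE replicate 1, at 18.3%, and LPP4 replicate 3, at 14.8%, lie above the other 10 libraries, and the SO libraries lie closest together.

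The same 2 libraries were high for almost every gene. ANE replicate 1 had the highest CPM (counts scaled to library size after TMM scaling) of the 12 libraries for 68 of the 76 genes and LPP4 replicate 3 for 7, and these 2 libraries were the highest pair for 73. ANE replicate 2 was the lowest library for 57 genes. Within ANE, replicate 1 was the highest and replicate 2 the lowest for all 76 genes. Within LPP4, replicate 3 was the highest for 75 and replicate 2 the lowest for 75. Within SO the order was looser, with replicate 3 the highest for 52.

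RPS2, a small subunit protein, was among the members with the most reads, with a mean of 4055 CPM. CPM is not divided by transcript length, so an order among genes is an order of read counts and not of transcripts. RPS2 measured 10939, 2640 and 3769 CPM in ANE replicates 1 to 3, 2971, 2580 and 5266 in LPP4, 3272, 3025 and 4696 in HPP4, and 2977, 3221 and 3299 in SO. ANE replicate 1 was its highest library and LPP4 replicate 2 its lowest, and the ANE libraries overlapped those of every other class. RPLP0 (3260 CPM) and RPLP1 (3169 CPM) were also among the 5 members with the highest means. At the other end were RPL3L at 1.40 CPM, RPS15A at 26.1, RPS27L at 50.3, RPS13 at 119.5 and RPL36A at 192.7. Ribosomal protein genes have many processed copies in mammalian genomes, so the level of any one of them also depends on how reads were assigned, and its value is uncertain to that extent. In the RefSeq table of another bovine assembly, 27 members overlap 57 small nucleolar RNA genes, 8 overlap another protein-coding gene and 3 overlap a tested gene, namely RPL35A, RPL36 and RPS23.

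The 3 stalk proteins, which recruit translation factors to the ribosome, had their highest library in common with most members, while their lowest differed. RPLP0 measured 9461, 2242 and 3083 CPM in ANE, 2443, 2030 and 4621 in LPP4, 2195, 2042 and 3388 in HPP4, and 2764, 2199 and 2655 in SO. RPLP1 ranged from 2102 CPM in SO replicate 3 to 8969 in ANE replicate 1, and RPLP2 from 600.9 CPM in ANE replicate 2 to 1654 in ANE replicate 1. For all 3 the highest library was ANE replicate 1, the lowest was LPP4 replicate 2 for RPLP0, and the ANE libraries overlapped those of every other class. RPS27A, which is made as a fusion with ubiquitin, ranged from 1393 to 4103 CPM, and RPSA, which also serves as a laminin receptor, from 1713 to 6097 CPM, again with ANE replicate 1 the highest.

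Between the highest and the lowest library, the CPM of a member differed by 2.71- to 5.11-fold, with a median of 3.59-fold. The largest standard deviations of log2 CPM were those of RPS6 (0.65), RPS10 (0.64) and RPS26 (0.64). RPS6, the target of the S6 kinases, measured 2904, 596.3 and 957.4 CPM in ANE, and 777.1, 702.9 and 829.9 in SO. The median coefficient of variation of the members was 63.4% in ANE, 45.4% in LPP4, 20.8% in HPP4 and 9.23% in SO. Over the 2080 other tested genes with at least 100 CPM the medians were 34.2%, 21.9%, 13.8% and 12.5%. The members thus varied more than other well-counted genes in ANE, LPP4 and HPP4, and less in SO.

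**Figure D2:**
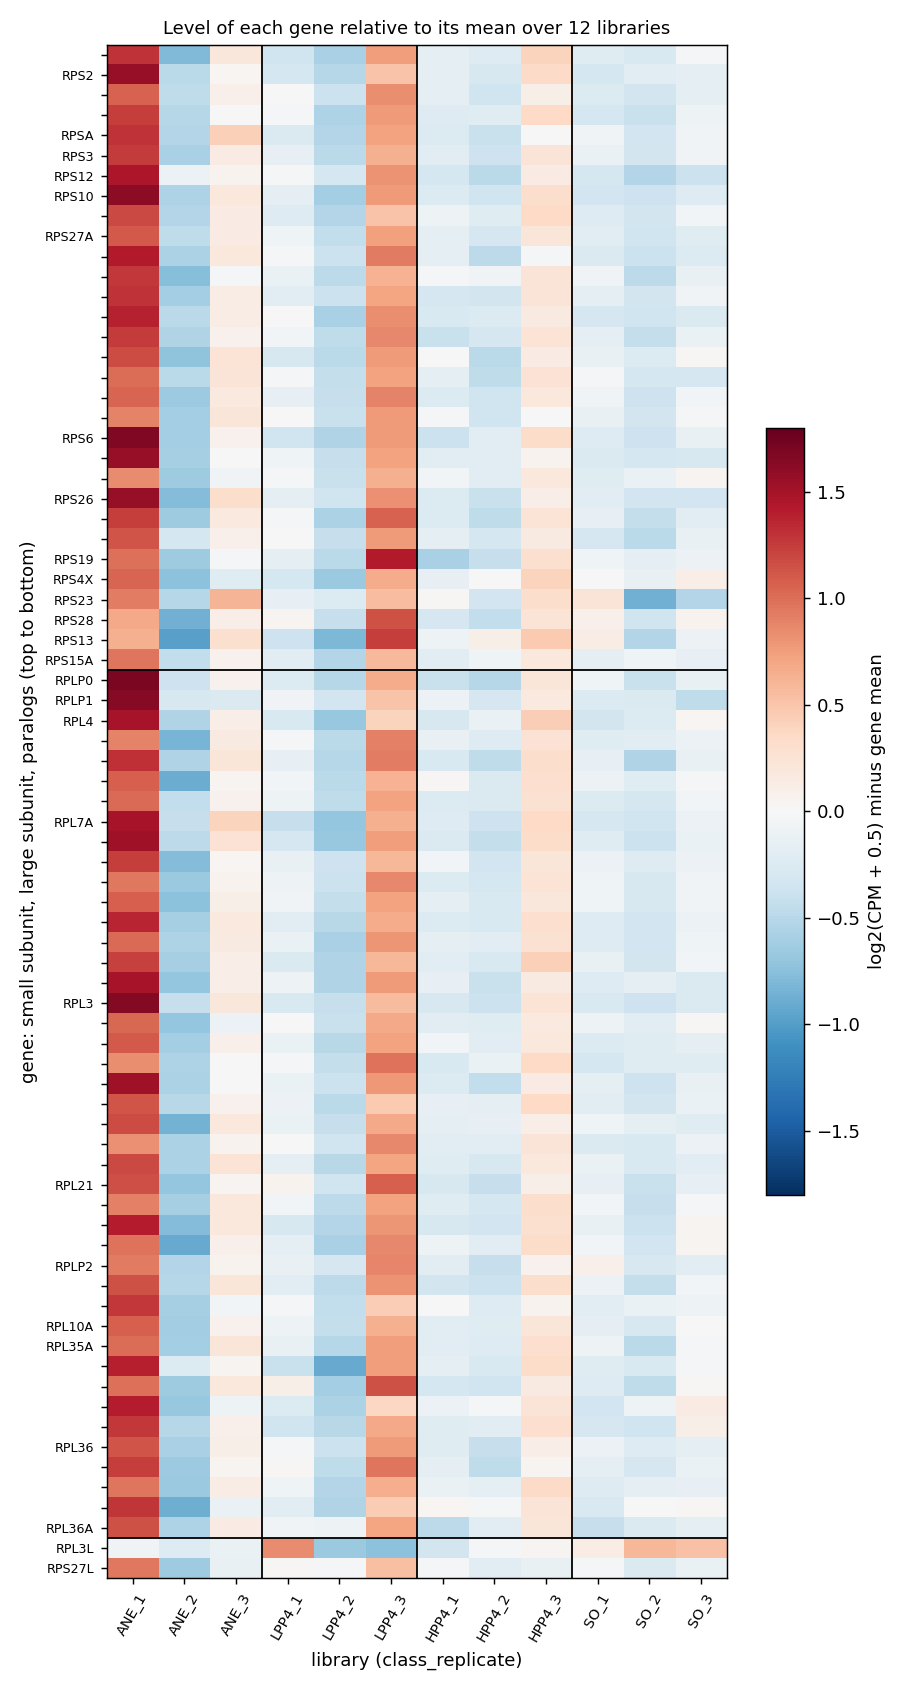
Level of each of the 76 genes (rows) in the 12 libraries (columns), as log2(CPM + 0.5) minus the gene's mean over the libraries. Rows are small subunit, large subunit and paralog genes, separated by black lines and ordered by mean CPM within the first 2 blocks, and only genes named in the text carry a label. The columns of ANE replicate 1 and LPP4 replicate 3 are high and that of ANE replicate 2 is low for nearly every row, while RPL3L goes its own way.

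The members moved together. Over 12 libraries the median Pearson r between 2 members was 0.947 (2850 pairs, quartiles 0.910 and 0.968) and the median Spearman rho was 0.888. Without ANE replicate 1 and LPP4 replicate 3, the 2 libraries farthest from the median, the values were 0.843 and 0.806. These are descriptions: the points share libraries and scaling, and the 12 libraries form 4 classes. RPL10A and RPS3 followed the mean of the other members most closely (r = 0.995 for both). The lowest values were those of RPL3L (-0.178), RPS23 (0.810) and RPS13 (0.837). RPL3L, a paralog of RPL3 known from striated muscle, had 4 to 21 counts per library, too few to place its libraries in an order. RPS27L, the other paralog, measured 94.2 CPM in ANE replicate 1 and 31.0 to 70.9 in the other libraries. Its r with the mean of the other members was 0.901, and 0.484 without ANE replicate 1 and LPP4 replicate 3, so its likeness to the family rests largely on those 2 libraries. RPS12 (0.921, and 0.534 without them) and RPLP1 (0.906 and 0.557) fell nearly as far. Over 12 libraries, 72 of 76 members had r of at least 0.9 with the mean of the others, and 227 of the tested genes outside the family had.

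Little of this variation lay between progesterone classes. The share of a member's variance in log2 CPM that lay between the 4 classes had a median of 12.3% (range 1.68% to 36.6%), against 33.0% over all tested genes. The highest shares were those of RPS12 (36.6%), RPL3L (28.7%) and RPS23 (25.6%).

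**Figure D3:**
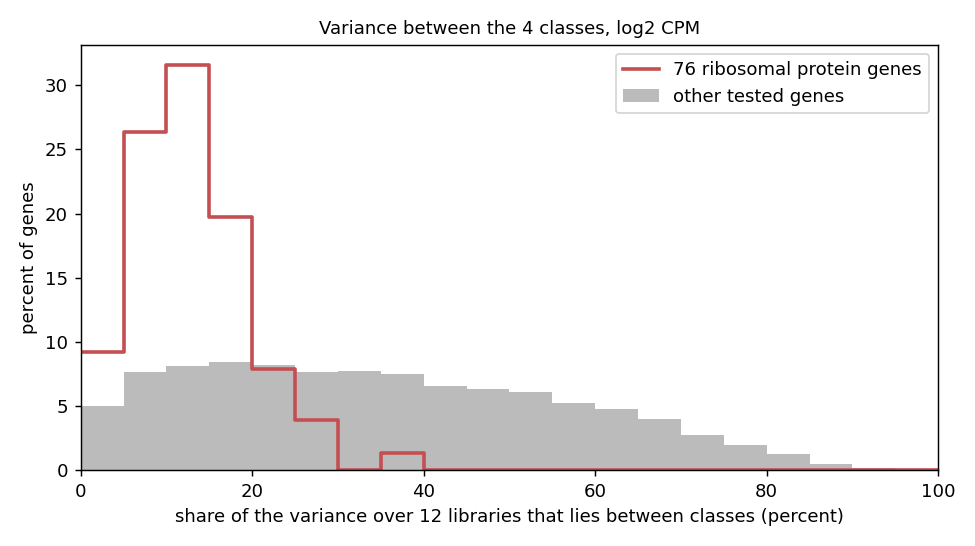
Share of the variance in log2 CPM that lies between the 4 progesterone classes (x axis, percent), for the 76 ribosomal protein genes and for the other tested genes. The median of the members is 12.3%, and that of all tested genes is 33.0%.

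The first question of the design was whether the endometrium differed between low and high progesterone. In HPP4 against LPP4, 68 of the 76 genes were lower (51.9% of all tested genes were) and 8 higher, with a median log2 fold change of -0.20 (range -0.70 to 0.16) and a median standard error of 0.47. No member was called by edgeR's quasi-likelihood test (smallest Benjamini-Hochberg adjusted p = 0.675), where 0% of all tested genes were called. At an unadjusted p under 0.05 there were 0 members, where 10.3% of all genes passed, and DESeq2 and limma-voom called 0 members, where they called 2.03% and 0% of all genes. RPS19, a small subunit protein mutated in Diamond-Blackfan anaemia, measured 412.8, 334.7 and 1263 CPM in LPP4 and 312.8, 350.3 and 571.8 in HPP4. The classes overlapped, and its log2 fold change was -0.70 ± 0.53 (SE; 95% interval -1.88 to 0.47; edgeR adjusted p = 0.675). RPS28 (-0.55) and RPL21 (-0.58) followed. Without LPP4 replicate 3 the median turned to 0.20, with 70 of 76 genes higher in HPP4.

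In SO against ANE, the extremes of the 4 classes, 75 of 76 genes were lower and 1 higher, with a median log2 fold change of -0.61 (range -1.06 to 0.75). The direction is to be read against ANE replicate 1: without it the median was -0.0077, with 44 genes lower and 32 higher. Among all tested genes, 57.6% were lower, with a median of -0.12. No member was called by edgeR (smallest adjusted p = 0.208), where 1.52% of all tested genes were, and neither DESeq2 nor limma-voom called one, where they called 12.6% and 0.00912% of all genes. At an unadjusted p under 0.05 there was 1 member, RPS12, where 23.8% of all genes passed.

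RPS12, a small subunit protein, had the smallest p in this comparison. It measured 6492, 2202 and 2489 CPM in ANE, 2325, 1917 and 4177 in LPP4, 1911, 1702 and 2636 in HPP4, and 1906, 1655 and 1816 in SO. The class means were 3728 ± 2398, 2807 ± 1204, 2083 ± 490.2 and 1793 ± 127 CPM (SD, n = 3), and all 3 SO libraries lay below all 3 ANE and all 3 LPP4 libraries. Its log2 fold change in SO against ANE was -1.06 ± 0.48 (SE; 95% interval -2.11 to -0.0026; edgeR adjusted p = 0.208), and without ANE replicate 1 it was -0.40 (edgeR adjusted p = 0.528). RPS12 was the 1 member whose SO libraries all lay below ANE, where 12.2% of all tested genes did so. RPL3L was listed as the 1 member with all SO libraries above ANE, where 13.4% of genes were, but its 4 to 21 counts per library are too few to order them. RPL3, a core protein of the large subunit, measured 4741, 1126 and 1737 CPM in ANE and 1240, 1165 and 1250 in SO, and RPS23, a protein of the decoding centre, 658.5, 243.4 and 527.2 in ANE and 405, 189.2 and 240.4 in SO. Their classes overlapped, and the log2 fold changes were -1.06 (edgeR adjusted p = 0.231) and -0.78 (edgeR adjusted p = 0.272). They were -0.25 and -0.49 without ANE replicate 1.

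The other 4 pairs gave no call either. In HPP4 against ANE, 74 genes were lower, where 58.8% of all genes were, and 2 higher (median -0.48), led by RPS12 (-0.84), RPL3 (-0.87) and RPLP0 (-0.96), with a smallest edgeR adjusted p of 0.361. In ANE against LPP4, 67 were higher, where 55.2% of all genes were, and 9 lower (median 0.28), led by RPL3 (0.72), RPL7A (0.73) and RPL4 (0.72), with a smallest edgeR adjusted p of 0.593. Without ANE replicate 1 these medians turned to 0.11 and -0.34, and without LPP4 replicate 3 that of ANE against LPP4 was 0.69. In SO against LPP4, 74 were lower, where 51.1% of all genes were, and 2 higher (median -0.34), led by RPS12 (-0.65), RPL36A (-0.52) and RPL21 (-0.62), with a smallest edgeR adjusted p of 0.648. Without LPP4 replicate 3 that median turned to 0.097. In that pair RPS12 and RPL36A were the 2 members whose SO libraries all lay below LPP4, where 11.1% of all genes did so. SO against HPP4 had the smallest median, -0.13, with 71 lower, where 52.3% of all genes were, and 5 higher. Without HPP4 replicate 3 it was 0.040. In that pair RPL3L (0.70), RPS23 (-0.34) and RPS13 (-0.33) had the smallest p (edgeR adjusted p = 0.99994). In these 4 pairs edgeR called 0% of all tested genes, DESeq2 and limma-voom called 0 members, and 0 members had an unadjusted p under 0.05 by edgeR, where 18.8%, 11.6%, 11.9% and 0.794% of all genes passed in the order given. DESeq2 called 6.89%, 2.56%, 3.44% and 0% of all genes in the same order and limma-voom 0%. With ANE replicate 1 left out, HPP4 against ANE was -0.17 for RPS12, -0.052 for RPL3 and -0.073 for RPLP0. The pairs share classes and are not independent of each other.

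**Figure D4:**
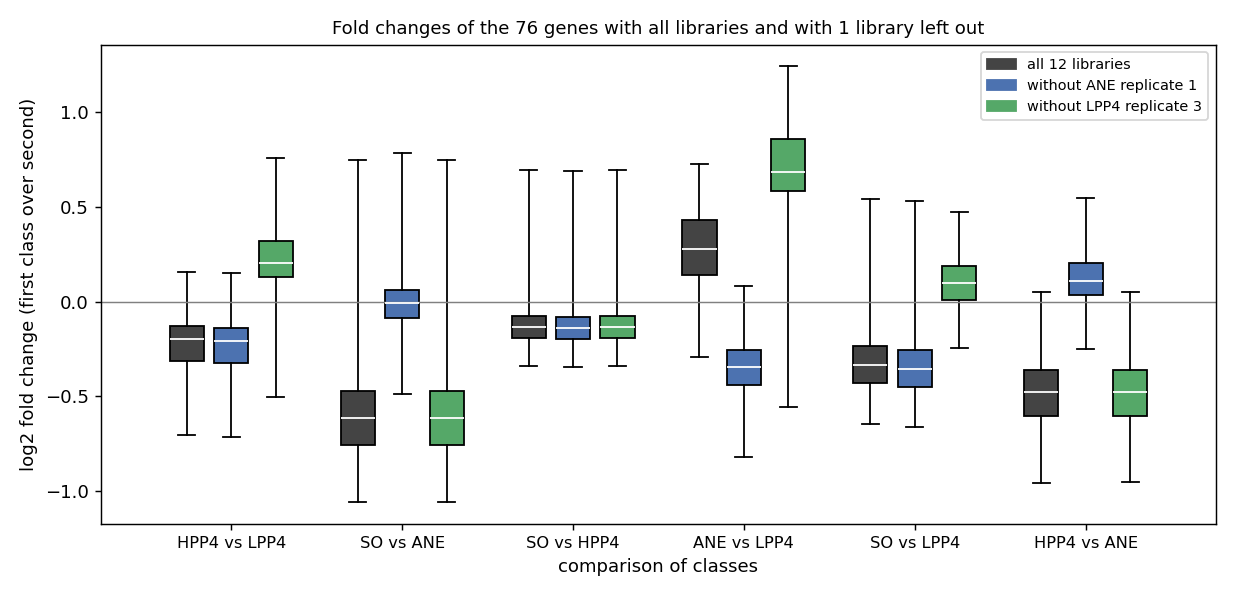
Log2 fold changes of the 76 genes in the 6 pairs of classes, with all 12 libraries, without ANE replicate 1 and without LPP4 replicate 3. Boxes are quartiles with the median, and whiskers span the full range of the members. Leaving out ANE replicate 1 moves the SO against ANE median from -0.61 to -0.0077, and leaving out LPP4 replicate 3 moves the HPP4 against LPP4 median from -0.20 to 0.20.

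Along the rank of the classes from 1 (ANE) to 4 (SO), 75 members had a negative slope, with a median of -0.20 log2 units per class (range -0.36 to 0.22), where 57.9% of all tested genes had one. No member was called by edgeR (smallest adjusted p = 0.108), where 7.48% of all tested genes were. For 4 members, RPS12, RPL3 and RPS26 among them, the slope had an unadjusted p under 0.05, where 27.9% of all genes did. The slope of RPS12 was -0.36 ± 0.13 (SE, edgeR adjusted p = 0.108), that of RPL3 -0.34 (edgeR adjusted p = 0.151) and that of RPS26 -0.33 (edgeR adjusted p = 0.170). DESeq2 called 1 member, RPS12 (slope -0.36, adjusted p = 0.0400), where it called 16.9% of all genes with an adjusted p, and limma-voom called 0, where it called 3.28%. The edgeR slopes of RPS12, RPL3 and RPS26 without ANE replicate 1 were -0.19, -0.10 and -0.12. Without ANE replicate 1 the median slope was -0.056, and without LPP4 replicate 3 as well it was 0.024. Among cell type markers, 4 of 15 T and NK cell, 5 of 7 myeloid, 2 of 7 neutrophil, 2 of 14 epithelial and 5 of 12 proliferation genes fell in the same trend by edgeR and none rose, and their part in the members' slopes was not tested. The joint test of the 4 classes called 0 members (smallest edgeR adjusted p = 0.485, for RPS12) and 0% of all genes, with 0 members at an unadjusted p under 0.05, where 17.8% of all genes passed, and DESeq2 and limma-voom also called 0, where they called 11.2% and 0% of all genes.

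When the smooth muscle score entered the model as a covariate, edgeR called 31 members in SO against ANE, 15 in HPP4 against ANE, 12 in the trend, 7 in the joint test and 2 in SO against LPP4. The same fit called 16.5%, 10.4%, 14.6%, 4.14% and 0.903% of all tested genes in that order, and in HPP4 against LPP4 it called 0 members and 0.356% of all genes. In the pairs and the trend all of these were lower in the class with more progesterone. With the epithelial score added it called 0 members, and of all genes 0.255% in the trend and 0% in the other comparisons. With the smooth muscle score and ANE replicate 1 left out it called 0 members and 0% of all genes. The score was 11.4 in ANE replicate 1, the library with the highest share of ribosomal protein counts, and 4.83 and 6.08 in the other 2 ANE libraries. The part of tissue make-up in the members' levels was not tested.

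Set against the family's own mean, which removes the shared movement, single members differed between classes by small amounts. The level of RPS12 relative to the mean of the members, and to its own mean over the libraries, was 0.27, 0.48 and -0.042 log2 units in ANE, 0.088, 0.17 and 0.084 in LPP4, -0.12, -0.20 and -0.081 in HPP4, and -0.15, -0.22 and -0.28 in SO. Every HPP4 and SO library lay below every ANE and LPP4 library. RPS4X, an X-linked small subunit protein, went the other way, at -0.13, -0.14 and -0.32 in ANE, -0.19, -0.19 and -0.054 in LPP4, 0.055, 0.27 and 0.17 in HPP4, and 0.15, 0.17 and 0.22 in SO. RPS12 was chosen from these same data, by its p in SO against ANE, and RPS4X was singled out after its values were seen. Of the members, RPS12 alone lay lower and RPS4X alone higher in every HPP4 and SO library than in every ANE and LPP4 library. How many other genes separate the classes in this way was not counted.

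Counted over the 76 members, the relative levels did not overlap in SO against ANE for 9 members that were higher, RPS4X among them, and 9 that were lower, RPS12 among them. Of all tested genes set against the same mean, 15.4% were higher and 1.42% lower in that way. In HPP4 against LPP4 the counts were 11 higher and 12 lower, where 5.79% and 6.12% of all genes were. The members share the mean they are set against, so higher and lower members balance by construction. For other genes the subtraction adds the members' own movement between libraries. The shares over all genes are therefore not a like background for the members' counts. With libraries scaled to the members' own sum, edgeR called 0 members. RPS12 then had a log2 fold change of -0.41 in SO against ANE (edgeR adjusted p = 0.398) and a slope of -0.15 (edgeR adjusted p = 0.196), and RPS4X 0.44 (edgeR adjusted p = 0.479) and 0.16 (edgeR adjusted p = 0.233).

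The 2 subunits kept close to a fixed proportion. The summed counts of small over large subunit genes were 0.829 ± 0.00257 in ANE, 0.818 ± 0.0125 in LPP4, 0.803 ± 0.00849 in HPP4 and 0.796 ± 0.00630 in SO (SD, n = 3), while the members' share of all counts ranged 2.55-fold. The differences were small, but every ANE library (0.827 to 0.832) lay above every HPP4 (0.797 to 0.813) and SO library (0.790 to 0.803). Without RPS12 the class means were 0.781, 0.772, 0.765 and 0.760, and the ANE and HPP4 libraries overlapped. The mean log2 CPM of small minus large subunit genes was -0.059, -0.054, -0.091 and -0.10 in the same order, and on that scale the classes overlapped.

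RACK1 and FAU, the subunit genes with other symbols, were measured beside the members. RACK1, a scaffold protein of the small subunit, measured 6588, 1957 and 2952 CPM in ANE and 2281, 2320 and 3082 in SO. FAU, a fusion of a ubiquitin-like protein with a small subunit protein, followed the members' mean less closely over 12 libraries (r = 0.826, against 0.948 for RACK1). That order rests on ANE replicate 1 and LPP4 replicate 3. With both left out, r was 0.873 for FAU and 0.852 for RACK1. In SO against ANE their log2 fold changes were -0.58 for RACK1 and -0.053 for FAU (edgeR adjusted p = 0.522 and 0.957).

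Other genes of the translation machinery were called by edgeR in the trend alone, where 3.02% of all tested genes rose and 4.46% fell with class rank. Of 31 initiation factors 1 fell, EIF4A1, the helicase that unwinds leader sequences (slope -0.31). Of 68 ribosome biogenesis genes, MDN1, which remodels large subunit precursors, rose (0.43), and WDR12 (-0.36) and NOLC1 (-0.20) fell. Of 15 genes of RNA polymerase I transcription, TAF1C rose (0.36). Of 34 genes listed as mTOR, MYC and related regulators 1 rose and 4 fell, among them MYC itself (-0.72), MXD3 (-0.95) and EIF2AK3 (-0.24). Of 71 mitochondrial ribosomal protein genes, MRPL32 rose (0.31) and MRPS7 fell (-0.24). None of 15 elongation factors and other oligopyrimidine-tract genes was called by edgeR. At an unadjusted p under 0.05 by edgeR, 3 of them had a negative slope and 0 a positive one. Of all tested genes, 27.9% passed at that cut in either direction.

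Over the 12 libraries, the mean log2 CPM of the mitochondrial ribosomal proteins (r = 0.939), the initiation factors (0.951), the biogenesis genes (0.847) and the elongation list (0.842) went with that of the members. That of the RNA polymerase I genes (0.187) and of the mTOR and MYC regulators (-0.352) did not. Without the 2 farthest libraries the last 2 values were 0.682 and -0.746. Cell type scores also went with or against the members' mean, the furthest from 0 being ciliated (-0.804), epithelial (-0.801) and stromal (0.651). Without those 2 libraries these were -0.384, -0.586 and 0.545. EEF1A1, the elongation factor that delivers aminoacyl-tRNA, measured 8890, 2428 and 2903 CPM in ANE and 2884, 2948 and 3886 in SO, with ANE replicate 1 again the highest.

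**Figure D5:**
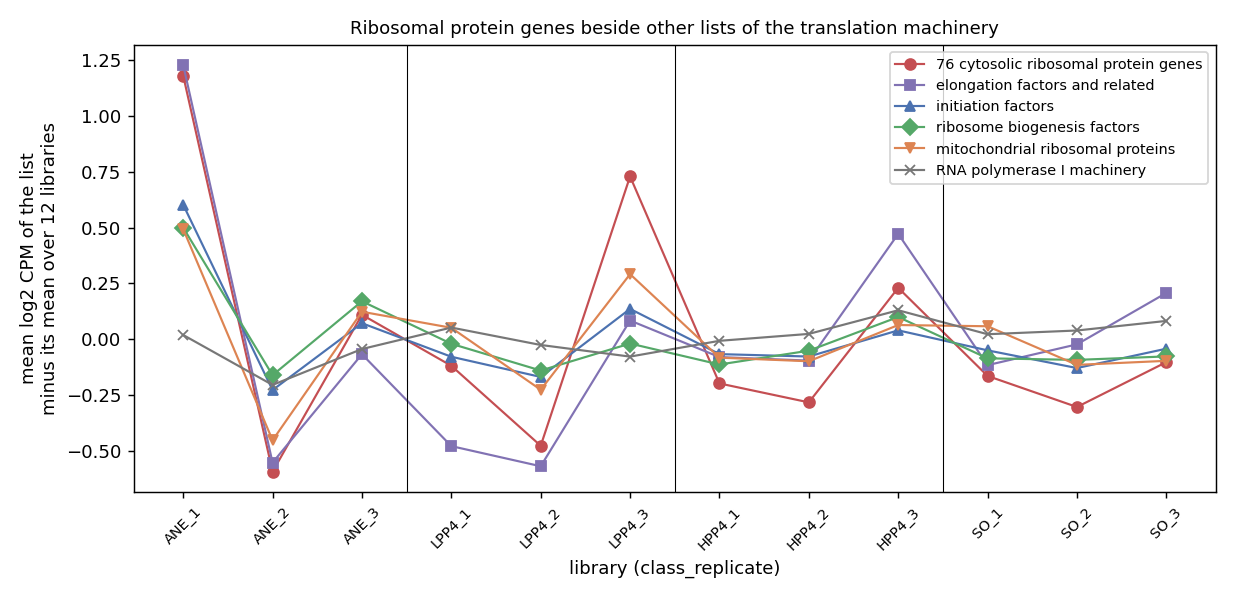
Mean log2 CPM of each translation list in the 12 libraries, minus the list's own mean over the libraries. The cytosolic ribosomal proteins and the elongation list span the widest ranges, and the highest library of the former, ANE replicate 1, is also the highest for the elongation, initiation and biogenesis lists.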

How the data were processed

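The authors deposited raw counts, whole numbers of reads per gene symbol in 1 column for each of the 12 libraries. Per the labels' protocols, messenger RNA was captured with oligo-dT, made into stranded libraries and sequenced as 1 pool. Tools listed in the submitters' processing notes are FastQC 0.11.2 and Trimmomatic 0.32, with builds UMD3.1 and bosTau8. For the aligner, counter, strand setting and annotation the sources used here give nothing, so no coordinates are printed and reads of overlapping genes were not separated.

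The main test was that of edgeR 4.0.16 (R 4.3.3). The filter filterByExpr, set to a count minimum of 10, left 10959 genes, and libraries were scaled by TMM (factors 0.728 to 1.11). All 12 libraries entered 1 quasi-likelihood fit of 4 class means, with 6 pairs, a joint test and a slope on class rank, and p-values were adjusted over all tested genes by Benjamini and Hochberg at 0.05. limma 3.58.1 (voom) and DESeq2 1.42.0 were alternatives. The scripts were tested on simulated data. No 2 libraries of a class agreed within sampling noise (over 12 pairs, chi-square divided by its degrees of freedom was 21.8 to 284.3), so none was counted as a repeat. Named genes are, for each comparison, up to 6 called members per direction or else the 3 with the smallest p, together with the members at the extremes of level, correlation and spread, the paralogs, the stalk proteins, RPS27A and RPSA, and up to 3 called genes of each other list. The members and lists were chosen with earlier results of these data known. Names were matched to the RefSeq table of assembly ARS-UCD2.0, and all 76 members matched by symbol. Some genes that this rule would name are not reported here.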

Additional observations from a re-analysis of the deposited data

How the results depend on the processing

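No member was called under most alternatives; the exceptions were the smooth muscle covariate (31, 15, 12, 7 and 2 members, where it called 16.5%, 10.4%, 14.6%, 4.14% and 0.903% of all genes) and DESeq2 in the trend (1 member, 16.9% of all genes). With that covariate the members' median log2 fold change was -0.42 in ANE against LPP4, -1.32 in HPP4 against LPP4 and -1.35 in SO against LPP4. With ANE replicate 1 left out as well, an alternative added after seeing the data, the medians were -0.40, -2.17 and -2.18, and -1.78 in HPP4 against ANE and -1.84 in SO against ANE. In that fit the smooth muscle score ran from 4.76 to 6.08 in ANE and LPP4, and 9.06 to 10.3 in HPP4 and SO. With no overlap in score, that fit cannot separate score from class in pairs across this gap. Their medians extend a slope beyond the score values found within classes. Without ANE replicate 1 and LPP4 replicate 3 together, also added later, the medians with no covariate were 0.12 in HPP4 against ANE and 0.023 in SO against ANE. Scaled to the members' own sum, added later, the SO against ANE median was 0.054. Leaving out 1 library at a time moved the medians from -0.34 to 0.69 (ANE against LPP4), -0.77 to 0.11 (HPP4 against ANE), -0.44 to 0.20 (HPP4 against LPP4), -0.89 to -0.0077 (SO against ANE), -0.21 to 0.040 (SO against HPP4), -0.54 to 0.097 (SO against LPP4) and -0.27 to -0.056 (trend). As a percentage of counts outside the members and the 1% best counted symbols, the class means were 20.2 (ANE), 16.5 (LPP4), 15.0 (HPP4) and 13.6 (SO). Leaving out 1 library, the share of all counts ran from 9.38% to 14.9% in ANE, 8.95% to 12.2% in LPP4, 9.36% to 10.9% in HPP4 and 9.30% to 9.80% in SO. Single genes that changed sign were, in ANE against LPP4, RPL3 (-0.17 with the covariate, -0.11 without ANE replicate 1, -0.16 with both, and up to 1.09 without LPP4 replicate 3), RPL4 (-0.15, -0.058 and -0.13, and up to 1.07) and RPL7A (-0.027 with the covariate), and, in HPP4 against LPP4, RPS19 (0.14 without LPP4 replicate 3, 0.13 without both libraries, and down to -1.03 without LPP4 replicate 2) and RPS28 (0.045 with both scores, 0.026 and 0.022 without those libraries, and down to -0.84). The cause was not tested. Replicate numbers do not pair the libraries (r over 0.1 in 3 of 18 same-numbered pairs, range -0.298 to 0.294). With the replicate block 0 members were called in every comparison, and the SO against ANE median was -0.51. With 3 libraries a class, a median standard error of 0.47 limits what could be detected. The fit gave each gene a spread shared by all classes. Yet the members' median coefficient of variation was 63.4% in ANE and 9.23% in SO. The median standard error was 0.474 both in SO against HPP4 and in ANE against LPP4, so in the former it also reflects the ANE and LPP4 scatter. Fitting only the libraries of the classes compared called 0 members in SO against HPP4 as well.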

Other observations

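Genes outside the family whose level followed the members' mean most closely over the 12 libraries were EIF3K, a subunit of an initiation factor (r = 0.991), NDUFS4, of respiratory complex I (0.983), MGC148714 (0.981), NACA, of the nascent polypeptide-associated complex (0.981), and KDM5A, a histone demethylase (0.981). EIF3K measured 624.8, 218.9 and 370.1 CPM in ANE and 287.2, 267.6 and 283.2 in SO. Of the 60 closest genes, 7 (11.7%) were in a translation list, against 2.22% of the 10883 tested genes outside the family, and 10 (16.7%, against 0.772%) were NDUF, ATP5 or COX genes of the respiratory chain and ATP synthase. The NDUF, ATP5 and COX group was not among the gene lists used above, so its share is a description and not a test.

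Some of these genes are not known for translation. KDM5A averaged 1436 CPM and OSTM1, of lysosomes, 1062 CPM (r = 0.9749). Of the 57 closest genes found in the RefSeq table, 9 (15.8%) overlap an annotated pseudogene there, KDM5A and OSTM1 among them, against 520 of 10553 (4.93%) tested genes outside the family. Whether reads from pseudogenes were counted to these symbols was not tested.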
